A study of Homo sapiens with 9 samples.

Results

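Lysosomes are the acidic compartments in which cells break down proteins, lipids and sugars, and autophagy is the route that wraps cytoplasm in a membrane and delivers it to them. Proton pumps acidify the lysosome, cathepsins and other hydrolases do the digestion, and membrane proteins such as LAMP1 and LAMP2 line it. The transcription factors TFEB and TFE3 are known to switch on many of these genes through the CLEAR motif, and the kinase complex mTORC1 holds both factors back. Trabecular meshwork cells, which line the drainage path of aqueous humour in the eye, are phagocytic and rely on this system to clear debris. The genes described here are 41 of the 37247 in the deposited tables: 6 membrane proteins, 11 proteases, 12 glycan and lipid hydrolases or their helpers, 4 proton pump subunits, 2 transcription factors and 6 genes of the autophagy machinery. They were listed by symbol, and all 41 were found in both tables through their Ensembl identifiers.

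RNA sequencing was done on a commercial immortalized line of human trabecular meshwork cells. After 24 h in serum-free medium, one group received 0.1 µM of the synthetic glucocorticoid dexamethasone (DEX), another 1 µM of the sympathetic transmitter norepinephrine (NE) and the last DMSO as vehicle. Cells were collected 6 h later, with 3 replicates in each group. All groups therefore share the serum withdrawal and the immortalization, and a single line stands for the tissue. The authors deposited 2 tables, one with 3 DEX and 3 vehicle libraries and one with 3 NE and 3 vehicle libraries, and each treatment was compared within its own table. The vehicle columns of the NE table are not tied to labelled samples. The sources do not say that replicates were separate cultures, so p-values measure the spread between these samples, which may be technical.

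Library totals ran from 24170204 to 27337259 counts for DEX, 19326830 to 26091949 for its vehicle, 31104094 to 34414380 for NE and 32184685 to 36216506 for its vehicle. Vehicle library 1 of the NE table stood apart: a chi-square per degree of freedom over genes was 17.31 and 21.13 against the other vehicle libraries of that table, which gave 2.965 against each other. Both treatments acted on known targets: FKBP5, induced by the glucocorticoid receptor, rose with DEX by 1.58 (log2, SE 0.05, adjusted p = 4.97e-11), and NR4A3, an immediate early gene, rose by 1.61 with NE (SE 0.11, adjusted p = 0.000332). TSC22D3 rose by 3.73 with DEX (adjusted p = 1.99e-13) and CRISPLD2 by 1.77 with NE (adjusted p = 2.51e-06). All 4 of these genes were called with DEX, 3 higher and 1 lower, and 3 of them were called with NE, all higher. For 3 of the 4 genes, a call is therefore not specific to a single treatment, and the other gene was called with DEX only. In a test of the DEX effect against the NE effect, all 4 differed, 2 higher and 2 lower. Of the trabecular meshwork markers, FOXC1 was at 68.6 to 72.2 CPM (counts scaled to a common library total) with DEX and 76.6 to 80.8 with vehicle, and fell by 0.17 (log2, adjusted p = 0.0304). With NE it was at 60.1 to 62.4 CPM, against 58.8 to 60.0 with vehicle (0.03, adjusted p = 0.786). The log2 fold changes with DEX were -0.13 for TIMP3 (adjusted p = 0.184), -0.02 for MGP (0.977) and -0.64 for CHI3L1, at 1.47 to 2.78 CPM with DEX against 3.17 to 3.36 with vehicle (0.0616). With NE they were 0.04 for TIMP3 (adjusted p = 0.877), 0.41 for MGP (0.584) and -0.13 for CHI3L1 (0.882). MYOC, AQP1 and ANGPTL7 stayed at or below 0.405 CPM in all libraries. Smooth muscle and pericyte markers summed to 61.3 to 64.7 CPM with DEX against 70.7 to 75.5 with vehicle. In the NE table they summed to 32.2 to 34.4 CPM with NE and 32.1 to 33.5 with vehicle, so vehicle sums differed between the tables. Their log2 fold changes with DEX ran from -0.33 to 0.29, 3 below 0 and 1 above, and 1 of the 4 was called, lower. With NE they ran from -0.04 to 0.43, with no call. The part of these markers in the results below was not tested. Markers of immune cells, which are rich in lysosomes, summed to 2.06 to 2.81 CPM with DEX against 2.75 to 3.65 with vehicle and to 1.29 to 1.84 CPM with NE against 1.52 to 1.89 with vehicle, and TYROBP had no count in 11 of the 12 libraries. In such bulk samples, fewer cells of a type and less RNA per cell cannot be told apart.

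The listed genes spanned a wide range of levels in vehicle-treated cells. Levels between genes were compared as CPM per kilobase of the principal transcript. CD63, a tetraspanin of late endosomes and lysosomes, had the highest level, at 430.0 ± 26.3 CPM per kilobase in the vehicle libraries of the DEX table and 364 ± 42.1 in those of the NE table (SD, n = 3 each). PSAP, the precursor of the saposins that help lipid hydrolases, followed at 369.9 ± 13.9 and 299 ± 16.7 CPM per kilobase in the same 2 sets. SQSTM1, the cargo receptor p62 of selective autophagy, ranked next in both sets, at 269.8 ± 9.56 and 219.5 ± 13.6 CPM per kilobase. CTSB led the proteases at 133 ± 2.75 and 127 ± 6.16 CPM per kilobase, close to the level of RAB7A, the GTPase that steers late endosomes to lysosomes, at 122 ± 2.73 and 117 ± 3.40. At the other end stood CTSS, a cathepsin mainly of antigen-presenting cells, at 0.175 ± 0.0552 and 0.277 ± 0.0596 CPM per kilobase. TFEB was the second lowest, at 1.52 ± 0.304 and 3.11 ± 0.271 CPM per kilobase, and its relative TFE3 was at 24.8 ± 0.876 and 25.9 ± 0.749. The vehicle level of GABARAPL1 was 34.5 ± 1.88 CPM per kilobase in the DEX table and 16.2 ± 1.09 in the NE table, and the 3 libraries of one set did not overlap the 3 of the other. No test was made across the tables, which may have been processed separately.

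**Figure D1:**
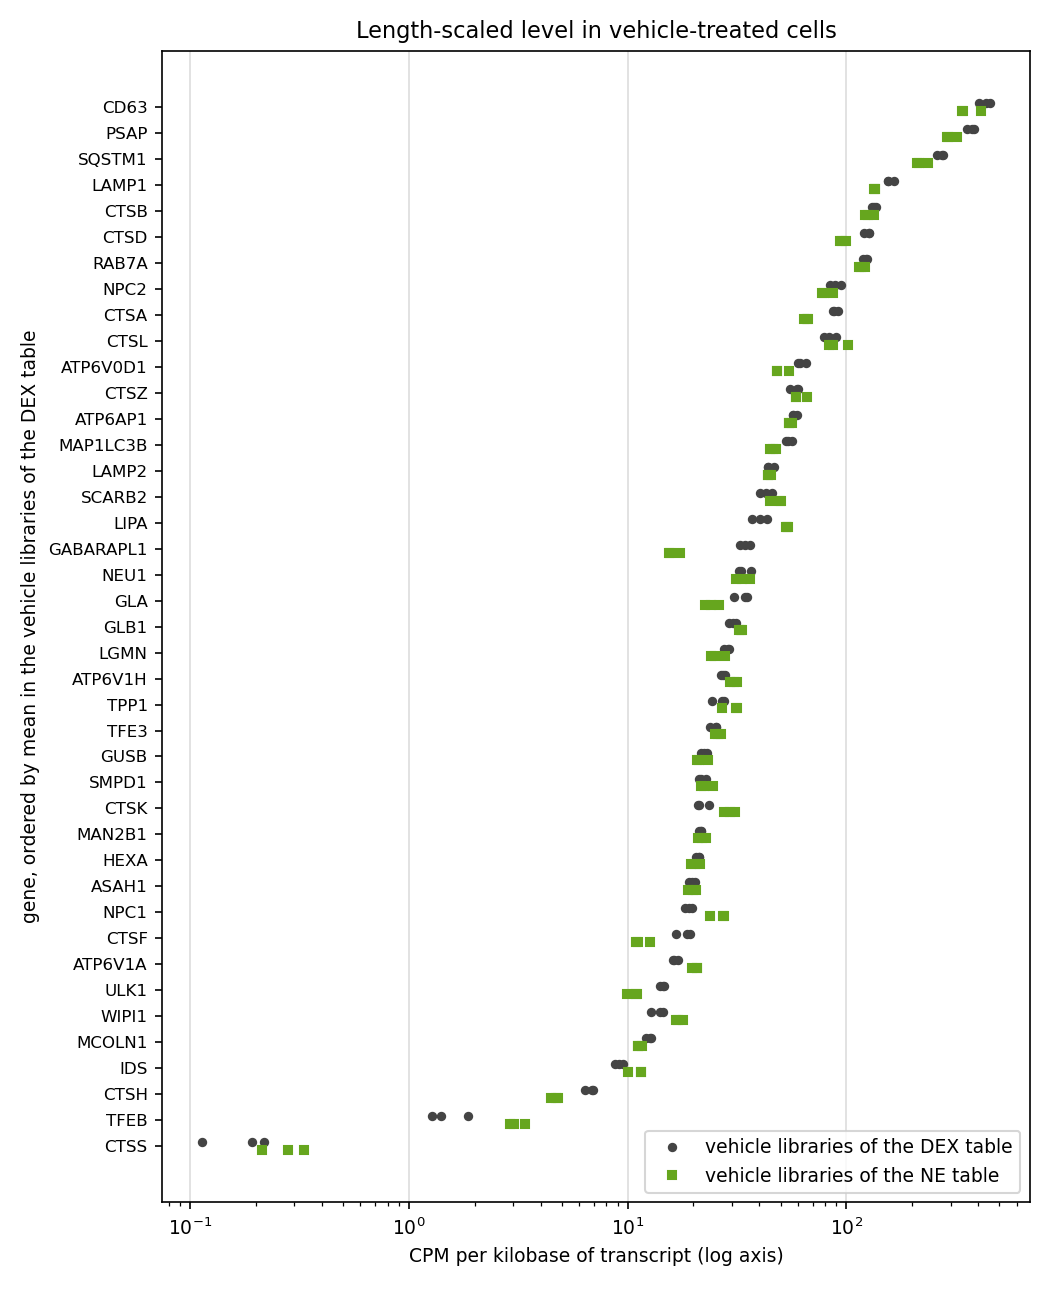
Level of each of the 41 genes in vehicle-treated cells, in CPM per kilobase of transcript on a log axis, with circles for the 3 vehicle libraries of the DEX table and squares for the 3 of the NE table. CD63, PSAP and SQSTM1 lead in both sets, TFEB and CTSS are lowest, and GABARAPL1 lies lower in the NE table.

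The promoters of 31 of the 41 genes were in the RefSeq table of GRCh38.p14, as 300 bases from 250 before to 50 after the gene start of that table. They were searched for the E-box CACGTG, the CLEAR core TCACGTGA, which contains that E-box, the cyclic AMP response element (CRE) TGACGTCA and the glucocorticoid response element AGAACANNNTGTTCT. Each of these motifs reads the same on both strands. The CLEAR core was in 4 of the 31 promoters (12.9%), against 1.82% of the 11453 promoters of genes tested in either comparison and 1.04% of all 27305 promoters. The E-box was in 8 (25.8%), against 9.76% and 7.43% in the same 2 sets. The CRE was in 1 promoter (3.23%), that of GABARAPL1, against 3.13% and 1.98%. The glucocorticoid element was in none of the 31, in none of the 11453 and in 1 of all promoters (0.00366%). A match describes these letters only and is not evidence of binding.

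**Figure D2:**
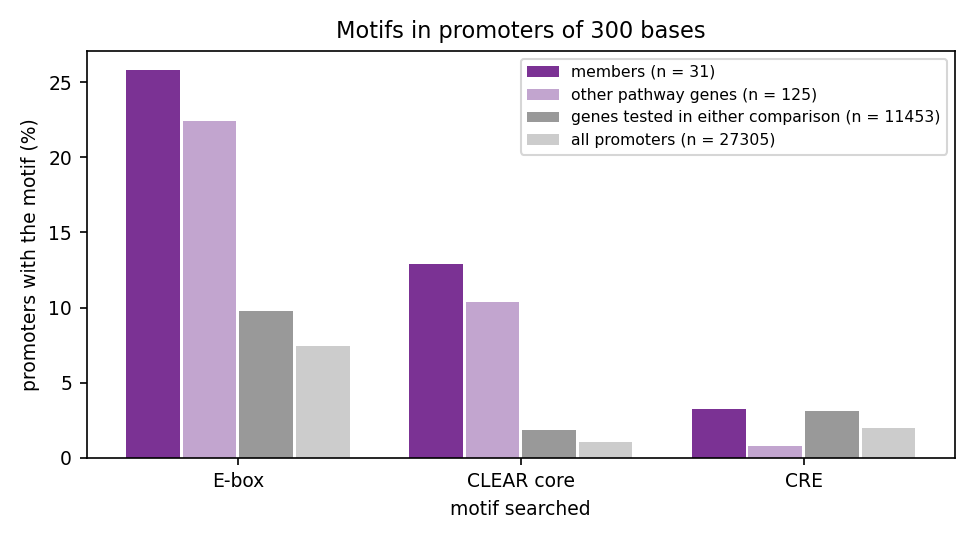
Share of promoters of 300 bases that hold each motif, in percent, for the listed genes with a promoter, the other listed pathway genes, the genes tested in either comparison and all promoters of the RefSeq table. The CLEAR core was in 12.9% of the listed genes' promoters and in 1.04% of all promoters.

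The first set below shows the 4 genes that passed the test for DEX or NE, and the second the 4 with a CLEAR core. Each is the 100 bases from 80 before the gene start to 20 from it, on the gene's strand, 5′ to 3′, from the RefSeq table of GRCh38.p14. Capitals mark the CRE, the CLEAR core or an E-box. The windows are WIPI1 on chr17:68457477-68457576 (minus strand), NPC1 on chr18:23586487-23586586 (minus), SQSTM1 on chr5:179806313-179806412 (plus) and GABARAPL1 on chr12:10212797-10212896 (plus), then LAMP1 on chr13:113297159-113297258 (plus), MCOLN1 on chr19:7522544-7522643 (plus), CTSA on chr20:45891255-45891354 (plus) and ATP6V0D1 on chr16:67481138-67481237 (minus).
WIPI1: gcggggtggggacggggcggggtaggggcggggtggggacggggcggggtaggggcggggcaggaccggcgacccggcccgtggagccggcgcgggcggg
NPC1: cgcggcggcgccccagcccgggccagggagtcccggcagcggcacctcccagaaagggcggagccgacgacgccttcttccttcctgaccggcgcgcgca
SQSTM1: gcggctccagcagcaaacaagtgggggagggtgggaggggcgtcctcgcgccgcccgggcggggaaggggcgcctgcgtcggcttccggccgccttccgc
GABARAPL1: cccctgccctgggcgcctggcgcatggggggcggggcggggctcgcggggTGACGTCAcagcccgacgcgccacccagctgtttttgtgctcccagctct
LAMP1: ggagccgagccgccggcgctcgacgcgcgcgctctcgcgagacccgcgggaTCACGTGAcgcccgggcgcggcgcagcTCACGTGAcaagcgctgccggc
MCOLN1: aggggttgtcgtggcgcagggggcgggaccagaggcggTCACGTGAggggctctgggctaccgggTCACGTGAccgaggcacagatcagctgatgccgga
CTSA: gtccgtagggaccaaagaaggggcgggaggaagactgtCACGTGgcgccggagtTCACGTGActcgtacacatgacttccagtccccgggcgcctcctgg
ATP6V0D1: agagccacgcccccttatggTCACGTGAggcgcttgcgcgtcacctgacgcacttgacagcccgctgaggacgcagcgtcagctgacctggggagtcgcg
The CRE of GABARAPL1 begins 30 bases before the gene start of the RefSeq table. In the GENCODE annotation the gene begins at position 10212458, so its printed window lies inside that span. LAMP1 and MCOLN1 each hold 2 CLEAR cores, those of LAMP1 beginning 29 and 2 bases before the start and those of MCOLN1 42 and 15 bases before it. The windows of WIPI1, NPC1 and SQSTM1 hold no capitals, that is, none of the motifs searched.

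After 6 h of DEX, 38 of the 41 genes did not pass the test, 2 rose and 1 fell. WIPI1, which binds the lipid PI3P on forming autophagosomes, rose by 0.49 on the log2 scale, NPC1, which moves cholesterol out of the lysosome, rose by 0.29, and SQSTM1 fell by 0.27. The test was edgeR's quasi-likelihood test over all 15133 genes with Benjamini-Hochberg adjustment, and a gene was called at an adjusted p below 0.05. The share called was 7.32% of the listed genes, against 10.1% of all genes tested, of which 6.65% were higher and 3.46% lower. The median log2 fold change of the 41 genes was 0.0150, against -0.00587 for all genes, with 23 genes above 0 and 18 below. Their summed level was 6530 to 6604 CPM in DEX libraries and 6484 to 6737 CPM in vehicle libraries, so the ranges overlapped.

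WIPI1 had 35.9, 37.3 and 33.4 CPM in the 3 DEX libraries, against 26.5, 25.8 and 23.4 CPM in vehicle libraries. Every DEX library was above every vehicle library. The log2 fold change was 0.49 (SE 0.06, adjusted p = 0.00012), a 1.41-fold rise with a 95% interval of 1.28 to 1.55. NPC1 had 123, 123 and 115 CPM with DEX, against 94.7, 102 and 98.5 CPM with vehicle, again without overlap. Its log2 fold change was 0.29 (SE 0.05, adjusted p = 0.00065). SQSTM1 had 661, 688 and 654 CPM with DEX, against 824, 819.7 and 773 CPM with vehicle, and each DEX library was below each vehicle library. It fell by 0.27 (log2, SE 0.04), with an adjusted p of 0.000816. These 3 calls held when any 1 library was left out and under all 8 other settings. Each of the 3 genes overlaps a gene on the opposite strand (ARSG for WIPI1, RMC1 for NPC1, MGAT4B and MRNIP for SQSTM1), and without a stated strand setting the reads of such partners cannot be told apart. Those partners reached at most 6.48 CPM for ARSG, 24.9 for RMC1, 25.7 for MRNIP and 139 for MGAT4B in the DEX table.

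**Figure D3:**
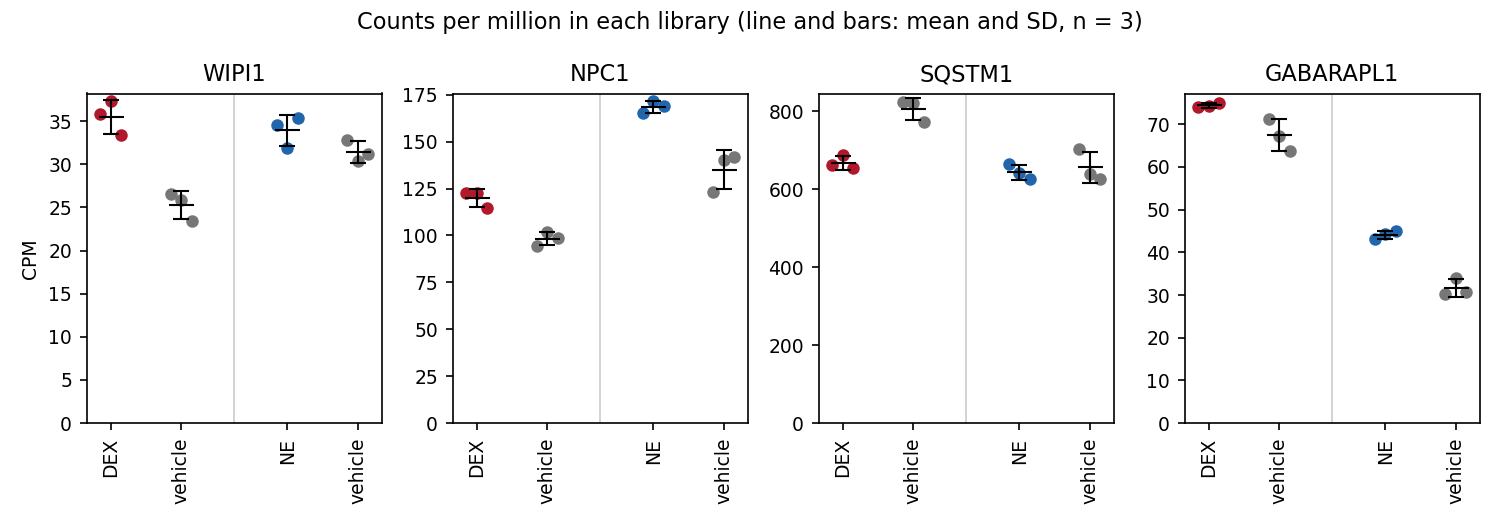
CPM of the 4 genes called for DEX or NE, 1 point per library, with each treatment left of the vehicle libraries of its own table, and lines and bars for the mean and SD (n = 3). WIPI1, NPC1 and GABARAPL1 lie higher and SQSTM1 lower with DEX, and NPC1 and GABARAPL1 lie higher with NE, without overlap in each case, although GABARAPL1 was not called for DEX.

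Among the other autophagy genes, GABARAPL1, an ATG8-family protein that is attached to autophagosome membranes, was close to the threshold with DEX. It had 74.0, 74.3 and 74.9 CPM with DEX, against 71.2, 67.3 and 63.8 CPM with vehicle (log2 fold change 0.14, SE 0.05, adjusted p = 0.085). The groups did not overlap, and the call was made with a correction for GC content and length (adjusted p = 0.0123), with no filter on low counts (0.0473) and without vehicle library 1 (0.0327). ULK1, the kinase that starts autophagy, had a log2 fold change of 0.10 (adjusted p = 0.198). MAP1LC3B, which encodes LC3B, had 146, 148 and 145 CPM with DEX, against 151, 143 and 145 CPM with vehicle (adjusted p = 0.995). The machinery genes summed to 1270 to 1311 CPM with DEX, against 1350 to 1425 CPM with vehicle, a sum in which SQSTM1 has the largest share. RAB7A had a log2 fold change of 0.03 (adjusted p = 0.731).

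NPC1 was the single membrane protein of 6 that passed the test for DEX. LAMP1, the most used lysosome marker, had 417, 441 and 459.9 CPM with DEX, against 419, 445 and 418 CPM with vehicle (log2 fold change 0.04, SE 0.05, adjusted p = 0.68), and the groups overlapped. LAMP2, needed for autophagosomes to fuse with lysosomes, had 203, 192 and 192 CPM with DEX, against 176, 176 and 188 CPM with vehicle (0.12, SE 0.04, adjusted p = 0.104), without overlap. LAMP2 was called with the correction for GC content and length (0.12, adjusted p = 0.0197). CD63 had 474, 470.0 and 507 CPM with DEX, against 559.9, 535 and 496 CPM with vehicle, which overlapped (-0.13, SE 0.05, adjusted p = 0.129). Without vehicle library 3, the calls grew to 6 of 41 by the addition of LAMP2, CD63 and GLA. Calls over all genes also grew in that fit, from 1530 of 15133 to 1835 of 15326. SCARB2, the carrier of glucocerebrosidase, and MCOLN1, the lysosomal calcium channel, did not pass the test either (adjusted p = 0.326 and 0.498).

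None of the 11 proteases, 12 hydrolases, 4 pump subunits and 2 transcription factors was called for DEX by edgeR with the default filter and all 6 libraries, or by DESeq2. With edgeR, TPP1 was called with no filter on low counts (adjusted p = 0.0411) and GLA without vehicle library 3 (0.0431). Without adjustment, a p below 0.05 was reached by 1 of the 11 proteases, TPP1, at 108, 99.6 and 102 CPM with DEX, against 86.3, 96.5 and 98.2 CPM with vehicle (log2 fold change 0.14, SE 0.05, adjusted p = 0.132), and by none of the others. Of all 15133 genes tested, 3469 had such a p. CTSB had 533, 522 and 519 CPM with DEX, against 526, 516 and 505 CPM with vehicle (log2 fold change 0.02, SE 0.04, adjusted p = 0.777). PSAP had 1029, 1054 and 1081 CPM with DEX, against 1093, 1076 and 1017 CPM with vehicle (-0.01, SE 0.04, adjusted p = 0.92). ATP6V0D1, a subunit of the membrane part of the proton pump, had 104, 103 and 104 CPM with DEX, against 112, 106 and 103 CPM with vehicle (-0.05, SE 0.04, adjusted p = 0.591). The accessory subunit ATP6AP1 had 123, 119 and 126 CPM with DEX, against 119, 124 and 119.7 CPM with vehicle (adjusted p = 0.846). The groups of TPP1 did not overlap, and those of CTSB, PSAP, ATP6V0D1 and ATP6AP1 did. TFE3 had 87.3, 89.2 and 84.8 CPM with DEX, against 86.2, 86.6 and 81.3 CPM with vehicle (0.04, SE 0.05, adjusted p = 0.644). TFEB had 3.69, 3.32 and 3.59 CPM with DEX, against 4.37, 3.31 and 3.02 CPM with vehicle (-0.01, SE 0.16, adjusted p = 0.969), and its low level gave it a wide interval of 0.786 to 1.25-fold.

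The intervals show how large a change the DEX data still allow. The 95% interval of the fold change lay within 1.5-fold in either direction for 39 of the 41 genes (95.1%), against 77.3% of all genes tested. Intervals widen at low counts, and the 41 genes and all genes were not matched by level, here or in the comparisons below. The exceptions were WIPI1, whose upper bound was 1.55, and CTSS, at 9 to 25 counts a library, whose interval was 0.693 to 1.68. Of the 38 genes that were not called, the fold changes ran from 0.910 for GLA to 1.10 for GABARAPL1.

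**Figure D4:**
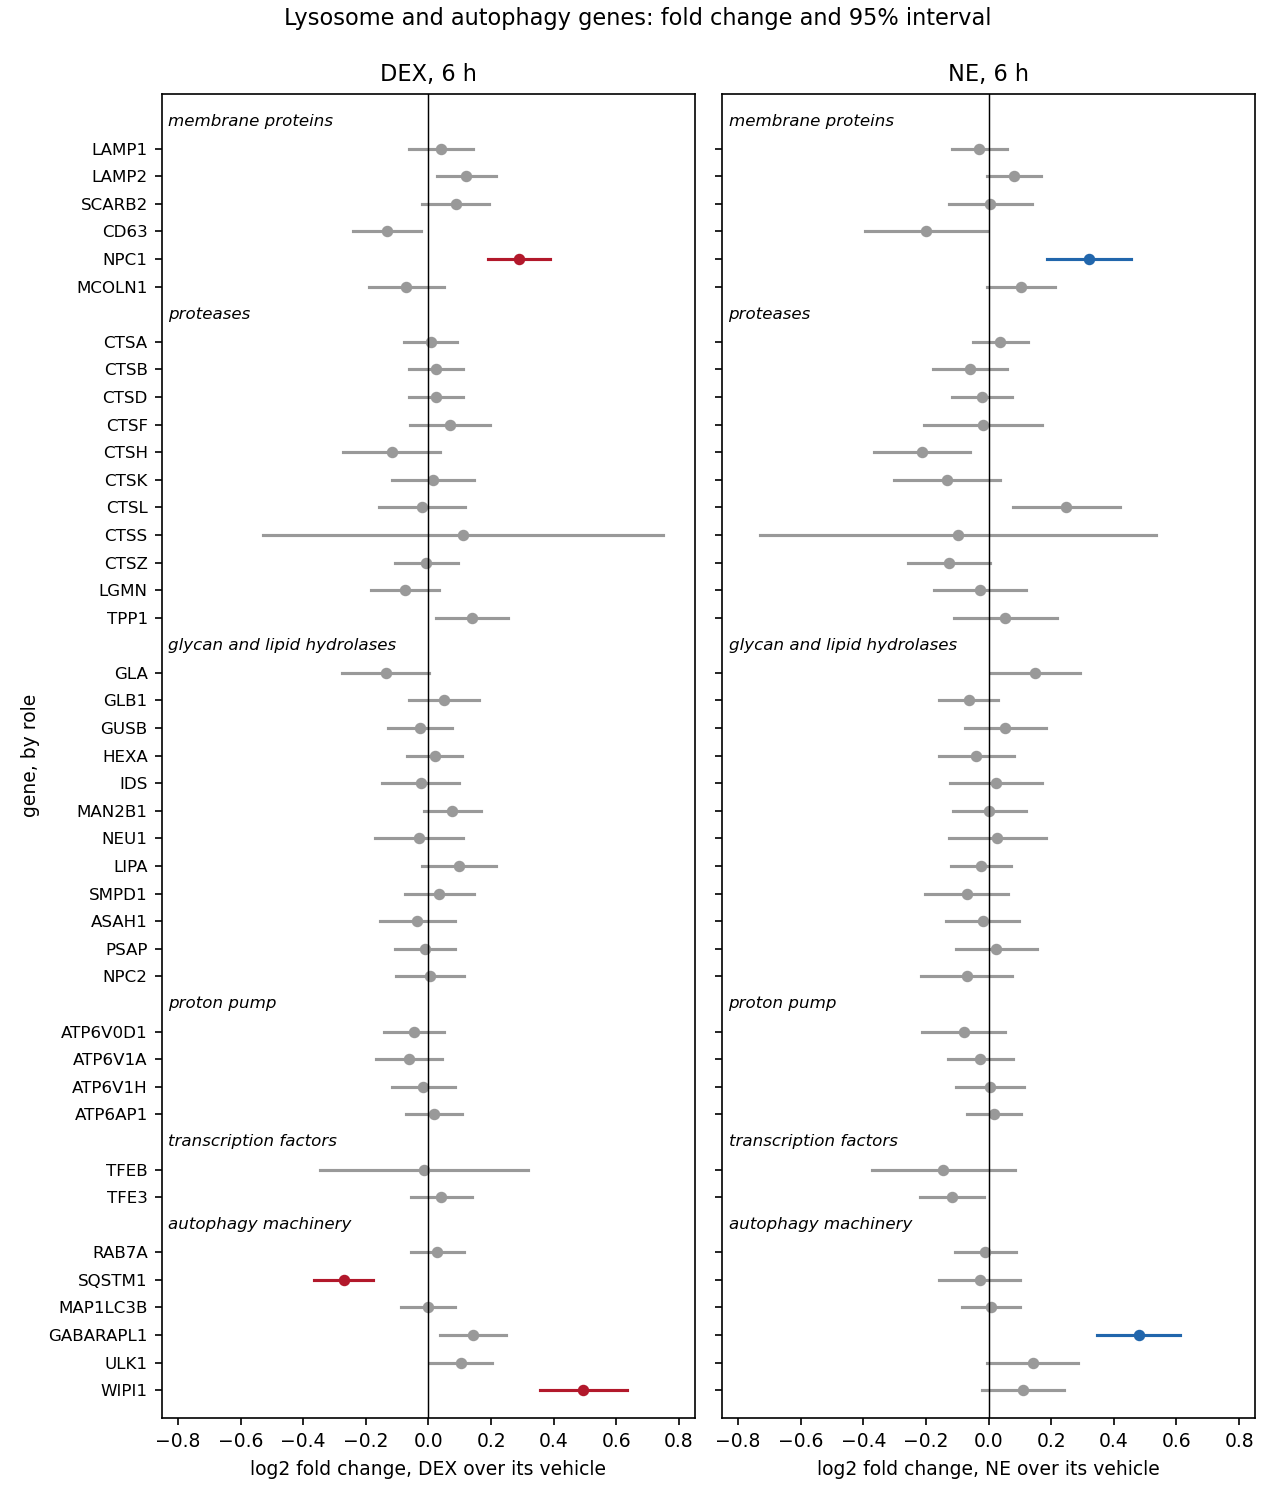
log2 fold change of the 41 genes by role, with 95% intervals, for DEX over its vehicle (left) and NE over its vehicle (right). Coloured points passed the test (WIPI1, NPC1 and SQSTM1 for DEX, NPC1 and GABARAPL1 for NE), grey points did not, and most grey points lie close to 0.

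After 6 h of NE, 2 of the 41 genes rose and none fell with edgeR's quasi-likelihood test without a replicate block. GABARAPL1 rose by 0.48 on the log2 scale and NPC1 by 0.32, and the other 39 did not pass the test. DESeq2 made the same 2 calls. An unadjusted p below 0.05 in edgeR was reached by 7 of the 41 genes, against 2168 of all 15630 genes tested. With a replicate block, edgeR called 7 of the 41 genes, 5 higher and 2 lower, as given below. That fit called 1688 of all 15630 genes. Without the block, the share called was 4.88%, against 2.82% of the 15630 genes tested, of which 1.48% were higher and 1.34% lower. The median log2 fold change of the 41 genes was -0.0169, against -0.00314 for all genes, with 19 above 0 and 22 below. Their summed level was 5933 to 6149 CPM in NE libraries and 5924 to 6269 CPM in vehicle libraries.

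GABARAPL1 had 43.2, 44.3 and 45.0 CPM in NE libraries, against 30.2, 34.1 and 30.7 CPM in vehicle libraries. Every NE library was above every vehicle library, but also below the vehicle libraries of the DEX table given above. The log2 fold change was 0.48 (SE 0.06, adjusted p = 0.004), a 1.39-fold rise with a 95% interval of 1.27 to 1.53. The call held without any 1 of the 6 libraries and under all 8 other settings. Its paralogue GABARAPL2 reached at most 54.6 CPM in that table, the pseudogene GABARAPL3 was at 0, and how reads that fit both copies were shared out is not given. The CRE in its promoter window is the one printed above, and binding to it was not measured.

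NPC1 had 165, 172 and 169 CPM with NE, against 123, 140.2 and 142 CPM with vehicle. The groups did not overlap, and vehicle library 1, the one that stood apart, was the lowest. The log2 fold change was 0.32 (SE 0.06, adjusted p = 0.028). The call was lost without NE library 1 (adjusted p = 0.0736), 2 (0.177) or 3 (0.152) and without vehicle library 2 (0.0825) or 3 (0.0549), and was kept without vehicle library 1 (0.00275), with log2 fold changes of 0.26 to 0.36 over the 6 fits.

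The remaining autophagy genes did not pass the test with NE. SQSTM1 had 663, 641 and 625 CPM with NE, against 702, 639 and 625 CPM with vehicle (log2 fold change -0.03, SE 0.06, adjusted p = 0.871). WIPI1 had 34.5, 31.9 and 35.3 CPM with NE, against 32.9, 30.3 and 31.1 CPM with vehicle (0.11, SE 0.06, adjusted p = 0.465). Both pairs of groups overlapped. MAP1LC3B had a log2 fold change of 0.01 (adjusted p = 0.949) and ULK1 of 0.14 (adjusted p = 0.376).

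CTSL, a cysteine protease of the lysosome, was the protease with the largest rise in value, without passing the test. It had 244, 229.9 and 226 CPM with NE, against 220.1, 188 and 180.3 CPM with vehicle (log2 fold change 0.25, SE 0.07, adjusted p = 0.162). The groups did not overlap, and without vehicle library 1 the gene was called (0.34, adjusted p = 0.0016). CTSL was also called with the correction for GC content and length (0.25, adjusted p = 0.0394). CTSB had 486, 470.2 and 455 CPM with NE, against 516, 485 and 469 CPM with vehicle (-0.06, SE 0.05, adjusted p = 0.685). CTSH, an aminopeptidase, had the lowest fold change of the 41 genes, 0.863, and was not called (adjusted p = 0.188).

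CD63 had 417, 390.0 and 367 CPM with NE, against 509, 418 and 421 CPM with vehicle (log2 fold change -0.20, SE 0.08, adjusted p = 0.35). The groups did not overlap, and vehicle library 1 was the highest. LAMP1 had 356, 362 and 352 CPM with NE, against 365, 362 and 365 CPM with vehicle (-0.03, SE 0.04, adjusted p = 0.796). PSAP had 912, 869 and 844 CPM with NE, against 915, 831 and 834 CPM with vehicle (0.02, SE 0.06, adjusted p = 0.887). The groups of LAMP1 and PSAP overlapped, and none of the 3 genes passed the test.

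Both transcription factors lay below 0 on the log2 scale with NE and neither was called. TFE3 had 78.8, 84.0 and 82.4 CPM with NE, against 85.9, 88.8 and 91.0 CPM with vehicle (-0.12, SE 0.04, adjusted p = 0.295), without overlap. TFEB had 7.32, 6.25 and 6.28 CPM with NE, against 8.03, 6.81 and 7.09 CPM with vehicle (-0.14, SE 0.10, adjusted p = 0.599), with overlap. Of the pump subunits, ATP6V0D1 had 82.6, 81.5 and 81.7 CPM with NE, against 94.2, 82.7 and 82.7 CPM with vehicle (-0.08, SE 0.06, adjusted p = 0.627), and ATP6AP1 had 116, 118 and 119 CPM with NE, against 118, 115 and 115 CPM with vehicle (adjusted p = 0.88). The interval of the fold change lay within 1.5-fold for 39 of the 41 genes (95.1%), against 78.6% of all genes tested. The exceptions were GABARAPL1, with an upper bound of 1.53, and CTSS (0.604 to 1.45).

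The difference between the effects, DEX over its vehicle relative to NE over its vehicle, was tested in 1 fit of all 12 libraries. It was called for 2 of the 41 genes (4.88%), 1 higher and 1 lower, against 6.0% of the 15952 genes tested, of which 3.88% were higher and 2.12% lower. WIPI1 had the larger fold change with DEX, with a log2 difference of 0.38 (SE 0.09, adjusted p = 0.019). That call was lost without DEX library 1 (adjusted p = 0.051) or 2 (0.0594), NE library 2 (0.0527) or vehicle library 3 of the DEX table (0.0532). GABARAPL1 had the larger fold change with NE, with a difference of -0.34 (SE 0.08, adjusted p = 0.0139), and the call was lost without vehicle library 3 of the NE table (0.0501). Each treatment has its own table and vehicle set, so differences between treatments and between tables cannot be told apart. WIPI1 was at 23.4 to 26.5 CPM in vehicle libraries of the DEX table and 30.3 to 32.9 in those of the NE table. Its treated levels overlapped, at 33.4 to 37.3 CPM with DEX and 31.9 to 35.3 with NE. The vehicle levels of GABARAPL1 also differed between the tables, as given above.

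SQSTM1, which fell with DEX and not with NE, had a difference of -0.25 (SE 0.07, adjusted p = 0.0574), so the effects were not shown to differ. It was called in 2 of the 12 fits that left out 1 library and under 5 of 7 other alternatives, among them with DESeq2 (adjusted p = 0.00774), with the correction for GC content and length (0.0191), with the stricter filter (0.049), without vehicle library 3 of the DEX table (0.047) and without vehicle library 1 of the NE table (0.00486). SQSTM1 was at 773 to 824 CPM in vehicle libraries of the DEX table and 625 to 702 in those of the NE table. Its treated levels overlapped, at 654 to 688 CPM with DEX and 625 to 663 with NE. NPC1, called in both comparisons, had a difference of -0.03 (95% interval -0.20 to 0.13, adjusted p = 0.906). The 41 genes had a median difference of 0.0374, against 0.00161 over all genes. The interval lay within 1.5-fold for 40 of them, with CTSS (0.622 to 2.13) the exception, against 66.8% of all genes.

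Of the listed genes above, the 4 with a CLEAR core in the promoter, LAMP1, MCOLN1, CTSA and ATP6V0D1, were not called in any of the 3 comparisons. The shares called over all genes tested were 10.1% for DEX, 2.82% for NE and 6.0% for the difference. At such shares, the lack of a call among 4 genes is not a result about the motif. Among the further pathway genes described below, 13 of 125 promoters held a CLEAR core. Of those that were called in a comparison and had a promoter searched, only IGF2R held one. It was called higher with DEX, a call that was lost in some fits. MCOLN1 had 25.0, 24.4 and 25.1 CPM with DEX, against 26.5, 26.4 and 25.4 CPM with vehicle (log2 fold change -0.07, adjusted p = 0.498). With NE it had 25.5, 25.0 and 25.8 CPM, against 23.3, 24.3 and 23.3 CPM with vehicle (0.10, adjusted p = 0.384). CTSA, the protective protein of the neuraminidase complex, had log2 fold changes of 0.01 with DEX (adjusted p = 0.939) and 0.04 with NE (adjusted p = 0.729).

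Beside these genes, 156 further genes of the same pathways were listed. With DEX, 153 were tested, 8 rose and 2 fell (6.54%, against 10.1% of all genes tested), and their median log2 fold change was 0.00707. With NE, 152 were tested, 3 rose and none fell (1.97%, against 2.82%), with a median of 0.0100. Of these 152, 16 had an unadjusted p below 0.05, against 2168 of all 15630 genes tested. The difference of the effects was called for 7 of 154 (4.55%, against 6.0%). The 13 further subunits of the proton pump gave no call with edgeR in any comparison, as did the 4 above. Unadjusted p-values below 0.05 were reached by 1 of the 13 with DEX, 1 with NE and 0 for the difference, and by none of the 4. Over all genes, they were reached by 3469 of 15133, 2168 of 15630 and 2691 of 15952 in the same order.

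The calls with the lowest adjusted p for DEX were DDIT4, SORT1, CALCOCO2 and LITAF. DDIT4 (REDD1), an inhibitor of mTORC1, had 124, 123 and 131 CPM with DEX, against 85.9, 81.6 and 76.5 CPM with vehicle (log2 fold change 0.63, SE 0.05, adjusted p = 7.48e-07). SORT1, the sorting receptor sortilin, had 86.7, 82.1 and 82.0 CPM with DEX, against 61.7, 63.7 and 63.8 CPM with vehicle (0.41, SE 0.05, adjusted p = 2.67e-05). CALCOCO2 (NDP52), a receptor of selective autophagy like SQSTM1, had 100.2, 98.0 and 98.2 CPM with DEX, against 75.8, 77.5 and 76.5 CPM with vehicle (0.37, SE 0.04, adjusted p = 2.89e-05). CALCOCO2 was called among 9 further receptors tested, and the other 8 were not called (11.1% called, against 10.1% of all genes). SQSTM1, one of the 41 genes, fell. LITAF, a protein of the late endosome and lysosome membrane, had 154, 157 and 158 CPM with DEX, against 201, 197 and 194 CPM with vehicle, and fell by 0.34 (SE 0.04, adjusted p = 3.58e-05). None of these groups overlapped, and the 4 calls held without any 1 library.

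The other DEX calls were smaller, and all were lost in at least 1 of the 6 fits that left out a library. VMP1, which helps autophagosomes form, rose by 0.18 (adjusted p = 0.0121) and was lost without vehicle library 2 (0.0894). IGF2R, the mannose 6-phosphate receptor that delivers hydrolases, rose by 0.20 (adjusted p = 0.0228) and was kept in 2 of those fits, with adjusted p up to 0.109. With the correction for GC content and length its value was 0.10 and it was not called (0.0603), nor was it in the fit of all 12 libraries (0.152). The IGF2R promoter holds CLEAR cores that begin 133, 75 and 29 bases before the gene start, and binding to them was not measured. MANBA, a mannosidase, rose by 0.24 (0.0367) and was kept in 2, with adjusted p up to 0.162. TPCN2, a lysosomal cation channel, rose by 0.20 (0.0374) and was kept in 1, with adjusted p up to 0.168. ULK2, a kinase related to ULK1, rose by 0.20 (0.0435) and was kept in 0, with adjusted p of 0.0557 to 0.169. ATG4A, a protease that trims ATG8 proteins, fell by 0.31 (0.0324) and was kept in 1, with adjusted p up to 0.142. DESeq2 did not call MANBA (adjusted p = 0.129), TPCN2 (0.17), ATG4A (0.138) or ULK2 (0.181), and ULK2 was not called with the correction for GC content and length (0.0836).

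With NE, the 3 calls were in the control of mTORC1 and of the TFEB family. DDIT4 had 209, 195 and 191 CPM with NE, against 102, 96.7 and 93.5 CPM with vehicle (log2 fold change 1.03, SE 0.05, adjusted p = 8.69e-05), a 2.04-fold rise. MITF, a transcription factor of the same family as TFEB and TFE3, had 28.6, 29 and 30.0 CPM with NE, against 22.5, 23.9 and 24.3 CPM with vehicle (0.31, SE 0.05, adjusted p = 0.0195). SESN2, a leucine-sensing inhibitor of mTORC1, had 28.2, 28.7 and 29.2 CPM with NE, against 24.3, 22.7 and 23.3 CPM with vehicle (0.29, SE 0.05, adjusted p = 0.0197). The groups of all 3 were separate. The DDIT4 call held without any 1 library, whereas those of MITF and SESN2 were each kept in 1 of 6 such fits, the one without vehicle library 1, and reached adjusted p of 0.12 and 0.117 in the others.

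**Figure D5:**
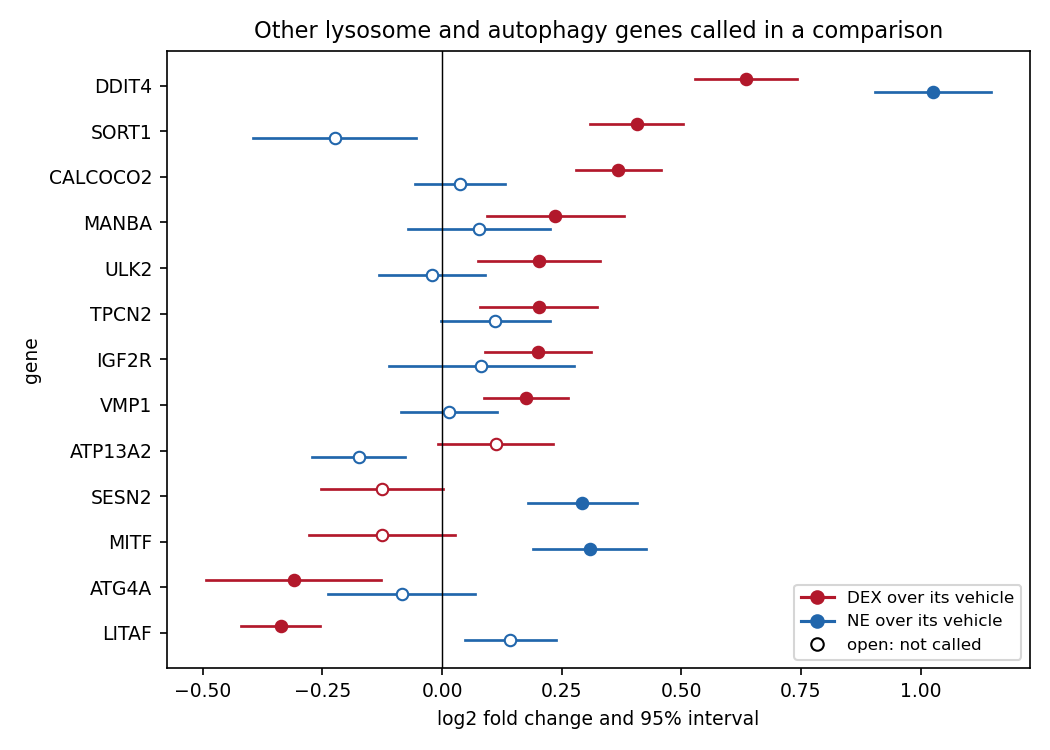
log2 fold change and 95% interval of the further pathway genes called in at least 1 comparison, in red for DEX over its vehicle and in blue for NE over its vehicle, with open symbols where the gene was not called. DDIT4 rose with both treatments, LITAF was called lower with DEX, and MITF and SESN2 were called for NE and not for DEX.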

How the data were processed

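RNA was measured by sequencing in DEX, NE and vehicle-treated cells (3 replicates each per the labels). The authors deposited per-gene expected counts (estimated read numbers, often fractional), and the unit was read from the values: 49.3% to 55.6% of values above 0 were not whole. The aligner, counting tool, build and strand setting were not given in the sources used here. Counts were rounded, which changed no total by more than 0.000918%. Symbols came from a table of gene identifiers (34436 of 37247 matched, PLEKHM1 and AIF1 without an identifier), and positions, transcript lengths and GC content from GENCODE release 29 on GRCh38.

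Low genes were removed by filterByExpr with default settings and libraries scaled by TMM. The test was edgeR's quasi-likelihood F test with robust dispersion (two-sided, version 4.0.16 under R 4.3.3), with Benjamini-Hochberg adjustment over all genes tested and calls below 0.05. CPM use the TMM-scaled totals. The scripts were tested on simulated data. Each treatment was compared within its own table, and the difference of the effects in a fit of all 12 libraries in 4 groups. Alternatives were DESeq2 1.42.0, other size factors, no filter or a stricter one (CPM of at least 1 in 3 libraries), each library left out, a replicate block, a correction for GC content and length (mgcv 1.9.3, values for 95.9% to 96.2% of genes) and the fit of all 12 libraries.

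The 41 genes, the further pathway and marker lists and the tests were chosen with earlier results of these data known, so lists are given by counts and medians, with no test. Values in every library are given for those of the 41 genes called in a comparison, for LAMP1, TFEB and TFE3, and for the gene of each role with the highest level per kilobase, and all called genes of the pathway lists are named (at most 4 per list and direction). TPP1, MAP1LC3B, LAMP2, CTSL, MCOLN1 and ATP6AP1 were added after their values were seen.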

Additional observations from a re-analysis of the deposited data

Results flagged for a closer look

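For 9 genes, 2 of the 41 (4.88%) and 7 of 154 further pathway genes (4.55%), against 6.0% of all genes tested, the DEX effect differed from the NE effect by the test of the difference itself, given here as log2 differences (DEX over its vehicle relative to NE over its vehicle) with edgeR's adjusted p. Among the 41 genes, WIPI1 had a difference of 0.38 (adjusted p = 0.019) and GABARAPL1 of -0.34 (adjusted p = 0.0139). The vehicle levels of both differed between the tables without overlap, so treatment and table cannot be told apart. Among the further pathway genes, SORT1 had a difference of 0.63 (adjusted p = 0.000443), from log2 fold changes of 0.41 with DEX and -0.22 with NE, where NE was not called within its table (adjusted p = 0.207) and was called with the correction for GC content and length (0.0252) and without vehicle library 1 of the NE table (0.0102). CALCOCO2 had a difference of 0.33 (adjusted p = 0.00104) and was called for DEX and not for NE. LITAF had a difference of -0.48 (adjusted p = 2.91e-05), from -0.34 with DEX and 0.14 with NE, which was not called within the NE table (adjusted p = 0.147) and was called in the fit of all 12 libraries (0.0378) and with the correction for GC content and length (0.0445). DDIT4 rose with both treatments, and its difference was -0.39 (adjusted p = 0.00442). MITF had a difference of -0.44 (adjusted p = 0.0073) and SESN2 of -0.42 (adjusted p = 0.00187), both called for NE and not for DEX. ATP13A2, a lysosomal polyamine exporter, had a difference of 0.28 (adjusted p = 0.0112). Within the single tables its effects were 0.11 with DEX (adjusted p = 0.254) and -0.17 with NE (adjusted p = 0.0834), and the NE effect was called in the fit of all 12 libraries (0.0256) and with the correction for GC content and length (0.0319). The 7 differences of the further pathway genes held in each of the 12 fits that left out 1 library.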

How the results depend on the processing

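No called value changed sign under any alternative. The 3 DEX calls among the 41 genes (WIPI1, NPC1, SQSTM1) and the NE call of GABARAPL1 held under all of them, and the NE call of NPC1 held under all except the 5 single-library omissions given above. For DEX, the 1530 genes called became 983 to 1835 when 1 library was left out (983 without vehicle 2 and 994 without DEX 2), and the listed genes called became 3 to 6, or 5 with the correction for GC content and length and 5 with no filter. For NE, the 441 genes called became 150 to 658 with 1 library left out (275, 150 and 160 without NE 1, 2 and 3, 217 and 210 without vehicle 2 and 3), 799 with the correction for GC content and length and 702 when all 12 libraries were fitted together. The listed genes called for NE became 1 to 3 with 1 library left out and 3, with CTSL added, with the correction for GC content and length. For the difference of the effects, the 957 genes called became 720 to 1243 with 1 library left out, and the listed genes called became 1 to 5 (1 without DEX 1, DEX 2, NE 2 or vehicle 3 of the NE table, 5 without vehicle 1 of that table) and 4 with the correction for GC content and length. The cause of these changes was not tested.

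Replicate numbers are shared between groups, but same-numbered libraries did not deviate together throughout. In the DEX table r was -0.106, 0.0388 and -0.137 for same-numbered pairs and -0.075 to 0.177 for the other pairs. In the NE table r was 0.403, 0.0936 and 0.226 for same-numbered pairs, all above 0, and -0.304 to 0.165 for the other pairs. There vehicle 2 correlated best with NE 3 (0.165). The labels do not state a pairing, and whether the NE libraries were paired is not known. The replicate block was therefore only an alternative. It gave 1688 of 15630 genes and 7 of the 41 listed genes for NE. Of these 7, 5 were higher (CTSL, GLA and ULK1 beside GABARAPL1 and NPC1) and 2 lower (CD63 and TFE3). For the difference, it gave 1000 of 15952 genes and 4 listed genes, with GLA and SQSTM1 (adjusted p = 0.0159) added. Together with the correction for GC content and length, the replicate block gave 2126 genes and 9 listed genes for NE, 5 higher and 4 lower (CTSK and CTSZ added), and 1579 genes and 5 listed genes for the difference, with TFE3 added and SQSTM1 at an adjusted p of 0.00136.

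With 3 libraries a group, depth limits the genes with few counts: CTSS had 9 to 45 counts a library and TFEB 64 to 252, and their intervals were the widest of the list in the DEX comparison. A call that misses the threshold does not show that a gene did not change.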
